A study of Mus musculus with 16 samples.

Results

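Sarcomere genes of the mouse heart were followed, 8 of the 19938 genes that a probe set with 1 symbol represented: Ttn, Mybpc3, Actn2, Ldb3, Pdlim5, Myot, Myoz2 and Tcap. They were chosen by symbol, with the probe set of highest mean over 16 arrays for each, and since each symbol had exactly 1 probe set the rule left no choice between probe sets. The list was drawn up with earlier results of these arrays known, so no count over it is evidence that these genes stand apart from others.

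Hearts came from 16 male C57BL/6 mice, 4 in each of 4 groups, and each heart was measured on 1 Affymetrix array. One genotype was a conditional knockout labelled zbtb17 cKO, in which the targeted gene Zbtb17 encodes Miz1, a transcription factor, and the other was labelled control; the labels name neither the Cre driver, the deleted part of the gene nor the alleles of the control mice. Both genotypes had either transverse aortic constriction (TAC), a narrowing of the aorta that makes the left ventricle pump against a raised pressure, or a sham operation, at 8 to 10 weeks of age, and hearts were taken 4 weeks later.

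The sarcomere is the contractile unit of striated muscle, bounded at each end by a Z-disc in which actin filaments of neighbouring units are anchored. Titin, encoded by Ttn, is a giant elastic protein that spans from the Z-disc to the M-band and sets passive stiffness, and cardiac myosin-binding protein C, encoded by Mybpc3, binds the thick filament and regulates its heads. At the Z-disc alpha-actinin 2 (Actn2) cross-links actin and titin. The PDZ and LIM domain proteins cypher (Ldb3) and ENH (Pdlim5), myotilin (Myot) and calsarcin 1 (Myoz2, which also binds the phosphatase calcineurin) dock on alpha-actinin, and telethonin (Tcap) caps the amino-terminal end of titin. Mutations in several of these genes cause cardiomyopathy or myopathy.

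Promoters of 6 of the 8 genes were read from RefSeq sequences (GRCm38.p6), in 8 windows of the 250 bases before a transcript start, and searched on both strands for 8 motifs chosen after the values of the genes were known. No window was read for Myot and Tcap. The 3 windows with a MEF2 box, the site of a muscle transcription factor, are shown so that their genes can be set beside each other in the values that follow. The window of Actn2, the only gene read with CACGTG, the E-box bound by Myc and Max, is shown as well. Capitals mark the MEF2 box in the first 3 sequences and CACGTG in the fourth, and each runs 5′ to 3′ on the strand of the gene.
Ttn (chr2:76982548-76982797, minus strand): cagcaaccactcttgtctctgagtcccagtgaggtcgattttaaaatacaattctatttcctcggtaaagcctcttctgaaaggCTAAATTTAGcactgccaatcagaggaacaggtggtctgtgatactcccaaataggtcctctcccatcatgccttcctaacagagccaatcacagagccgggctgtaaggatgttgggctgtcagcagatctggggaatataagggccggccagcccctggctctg
Mybpc3 (chr2:91117894-91118143, plus strand): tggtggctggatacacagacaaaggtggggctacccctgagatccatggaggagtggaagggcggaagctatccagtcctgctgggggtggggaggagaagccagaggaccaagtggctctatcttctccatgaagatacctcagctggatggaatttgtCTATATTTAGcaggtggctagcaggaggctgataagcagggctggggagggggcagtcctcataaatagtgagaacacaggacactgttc
Myoz2 (chr3:123034988-123035237, minus strand): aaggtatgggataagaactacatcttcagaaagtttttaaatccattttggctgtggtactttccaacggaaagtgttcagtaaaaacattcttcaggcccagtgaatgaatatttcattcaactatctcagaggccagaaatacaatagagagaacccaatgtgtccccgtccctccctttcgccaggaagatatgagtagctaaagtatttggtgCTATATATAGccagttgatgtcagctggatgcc
Actn2 (chr13:12340733-12340982, minus strand): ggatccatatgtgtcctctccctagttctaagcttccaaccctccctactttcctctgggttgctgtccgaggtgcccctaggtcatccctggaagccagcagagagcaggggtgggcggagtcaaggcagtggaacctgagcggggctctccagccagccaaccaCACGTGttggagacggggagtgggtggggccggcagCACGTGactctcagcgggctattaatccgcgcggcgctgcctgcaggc
A MEF2 box was found in 2.92% of 32851 windows of the same length and CACGTG in 6.02%. The MEF2 box began 166 bases before the start in Ttn, 90 in Mybpc3 and 33 in Myoz2, and the 2 copies of CACGTG in Actn2 began 84 and 48 bases before it. A CArG box, the site of serum response factor (1.47% of windows), lay in both overlapping windows of Ldb3. TATAAA (12.4%) was found in 1 window of Pdlim5, GGGCGG (32.7%) in Actn2, Mybpc3 and Pdlim5, and CCAAT (33.8%) in Myoz2, Pdlim5 and Ttn, while CATTCC (12.6%) and AGATAA (9.99%) were in none of the 8 windows. These are matches of letters and do not show that a factor binds.

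All values are log2 expression values, so a difference of 1 is a doubling; levels of different genes are not compared, since probe sets differ in brightness. The 8 genes were bright, with means between the 95.4th and 99.6th percentile of all probe sets, and all 8 passed the filter on dim probe sets (mean above 4.37). Ventricular cardiomyocyte markers averaged 13.00 to 13.29 per array with 9 of 9 above the filter, and skeletal muscle markers 5.23 to 5.49 with 5 of 9 above it. Of the latter, Actn3 was between 4.60 and 4.84 and Myh4 between 4.11 and 4.54. Ckm, on the same list, was bright at 12.52 to 12.97 and raised that average, which is therefore no measure of skeletal muscle alone. Skeletal muscle matters here because Myot and Tcap are also abundant there. The atrial light chain gene Myl7 was above 6 on 6 arrays (6.07 to 8.83) and at 4.30 to 5.20 on the other 10, and the stress-induced gene Atf3 was above 8 on 3 sham arrays. Zbtb17 was at 6.36 ± 0.13 in control and 6.52 ± 0.07 in cKO hearts after sham, and at 6.45 ± 0.11 and 6.50 ± 0.02 after TAC (SD, n = 4 each). The difference between cKO and control hearts averaged over surgery was 0.11 ± 0.06 (SE, limma adjusted p = 0.361), no lower level in the cKO hearts, and since the deleted part is unknown its level is no check of genotype. In RNA of heart tissue, fewer cardiomyocytes and less RNA per cardiomyocyte cannot be told apart. Whether atrial tissue was included is not stated.

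**Figure D1:**
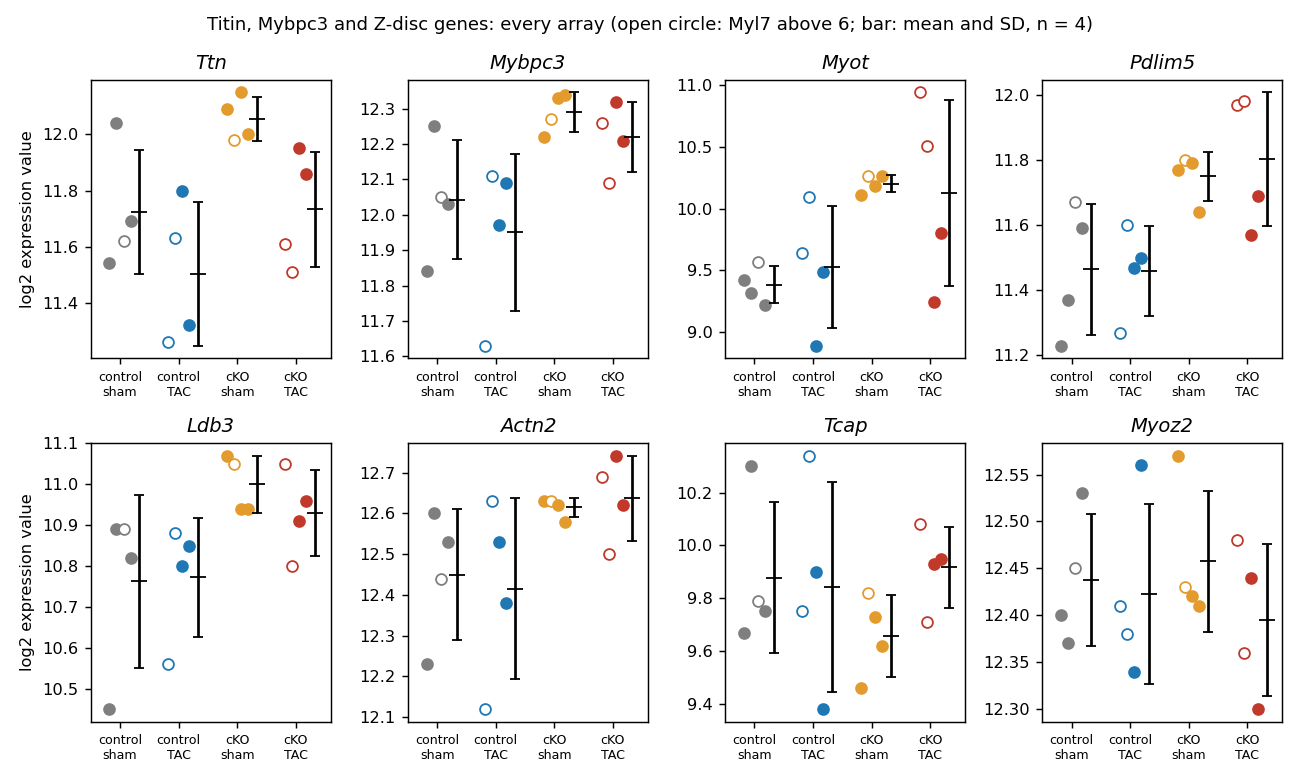
Log2 expression values (vertical axes, a separate scale for each gene) of the 8 genes in every heart by genotype and surgery (horizontal axes), with the mean and SD of 4 hearts as a bar and open circles for arrays with Myl7 above 6. The cKO sham hearts lie closest together in Ttn, Mybpc3, Myot, Pdlim5, Ldb3 and Actn2, and the 4 cKO sham values of Myot (10.11 to 10.26) all lie above the 4 control sham values (9.22 to 9.57).

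Ttn, the titin gene, was at 11.54, 12.04, 11.62 and 11.69 in control sham hearts and at 12.09, 11.98, 12.15 and 12.00 in cKO sham hearts. After TAC it was at 11.26, 11.63, 11.80 and 11.32 in control and at 11.61, 11.51, 11.95 and 11.86 in cKO hearts. The sham genotypes overlapped only through control sham replicate 2, the TAC genotypes overlapped widely, and every cKO TAC heart lay below every cKO sham heart. From low to high the group means were control TAC at 11.50 ± 0.26, control sham at 11.72 ± 0.22, cKO TAC at 11.73 ± 0.21 and cKO sham at 12.055 ± 0.08 (SD, n = 4 each), and only the step from cKO TAC to cKO sham exceeded the larger SD of the neighbours. Ttn had a log2 difference of 0.33 ± 0.13 (SE) between cKO and control after sham and of 0.23 ± 0.13 after TAC, neither past the threshold of 0.05 (limma adjusted p = 0.396 and 0.720), and 0.15 after TAC without control TAC replicate 1. TAC minus sham was -0.22 ± 0.13 in control and -0.32 ± 0.13 in cKO hearts (limma adjusted p = 0.673 and 0.726; -0.11 in control hearts without control sham replicate 2), and -0.27 ± 0.09 averaged over genotype (limma adjusted p = 0.281), the largest TAC difference in size among the 8 genes in that average. With the 6 Myl7-high arrays left out, a choice made after seeing the data, TAC minus sham was -0.175 in cKO hearts and -0.20 in control hearts, and the genotype difference after TAC was 0.345.

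Mybpc3, the gene of cardiac myosin-binding protein C, was at 11.84, 12.25, 12.05 and 12.03 in control sham and 12.22, 12.27, 12.33 and 12.34 in cKO sham hearts. After TAC the control hearts were at 11.63, 12.11, 11.97 and 12.09 and the cKO hearts at 12.26, 12.09, 12.32 and 12.21. In each surgery 1 array made the genotypes overlap, control sham replicate 2 (12.25) and cKO TAC replicate 2 (12.09). The order of the means was control TAC (11.95), control sham (12.04), cKO TAC (12.22) and cKO sham (12.29), and only the step between the genotypes, 0.18, was larger than the larger SD of its neighbours (0.17). The genotype difference was 0.25 ± 0.10 (SE) after sham and 0.27 ± 0.10 after TAC (limma adjusted p = 0.401 and 0.571), and 0.16 after TAC without control TAC replicate 1. TAC minus sham averaged over genotype was -0.081 ± 0.070 (limma adjusted p = 0.668), with -0.028 without control TAC replicate 1, -0.047 without control sham replicate 2 and -0.021 without the 6 Myl7-high arrays.

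Actn2, the gene of the Z-disc cross-linker alpha-actinin 2, was at 12.23, 12.60, 12.44 and 12.53 in control sham and 12.63, 12.63, 12.62 and 12.58 in cKO sham hearts. After TAC it was at 12.12, 12.63, 12.53 and 12.38 in control and 12.69, 12.50, 12.74 and 12.62 in cKO hearts. The cKO sham hearts lay between 12.58 and 12.63, at the upper edge of the control sham range. Means ran from control TAC (12.415) and control sham (12.45) to cKO sham (12.615) and cKO TAC (12.64), and the gap between control sham and cKO sham was the only one above the larger SD. The genotype difference was 0.165 ± 0.096 (SE) after sham and 0.22 ± 0.10 after TAC (limma adjusted p = 0.556 and 0.634). The same low control arrays bore on it, with 0.092 after sham without control sham replicate 1 and 0.12 after TAC without control TAC replicate 1.

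Ldb3, whose product cypher links alpha-actinin to signalling kinases, was at 10.45, 10.89, 10.89 and 10.82 in control sham and 11.07, 11.05, 10.94 and 10.94 in cKO sham hearts. After TAC the values were 10.56, 10.88, 10.80 and 10.85 in control and 11.05, 10.80, 10.91 and 10.96 in cKO hearts. All 4 cKO sham hearts lay above all 4 control sham hearts, whereas the TAC groups overlapped. Mean Ldb3 stood at 10.76 (control sham), 10.77 (control TAC), 10.93 (cKO TAC) and 11.00 (cKO sham), with the step between the genotypes (0.16) above the larger SD (0.15). The genotype difference was 0.24 ± 0.10 (SE) after sham and 0.16 ± 0.10 after TAC (limma adjusted p = 0.409 and 0.746). Single arrays moved both values, to 0.13 after sham without control sham replicate 1 and to 0.087 after TAC without control TAC replicate 1.

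Pdlim5, whose product ENH is built like cypher from a PDZ and LIM domains, was at 11.23, 11.37, 11.67 and 11.59 in control sham and 11.77, 11.80, 11.79 and 11.64 in cKO sham hearts. After TAC it was at 11.27, 11.60, 11.47 and 11.50 in control and 11.97, 11.98, 11.57 and 11.69 in cKO hearts. In both surgeries the lowest cKO heart lay just below the highest control heart. Means were 11.46 in control TAC, 11.465 in control sham, 11.75 in cKO sham and 11.80 in cKO TAC, and the gap from control sham to cKO sham (0.285) exceeded the larger SD (0.20). The genotype difference was 0.285 ± 0.108 (SE) after sham and 0.34 ± 0.11 after TAC (limma adjusted p = 0.389 and 0.563). When the 6 Myl7-high arrays were left out, the TAC value was 0.145 and the sham value 0.34. Without the 3 Atf3-high sham arrays, likewise a choice made after seeing the data, the sham value was 0.44 (limma adjusted p = 0.185).

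Myot, the gene of myotilin, which binds alpha-actinin and filamin, had the widest range of the 8 genes, 2.05. It was at 9.42, 9.32, 9.57 and 9.22 in control sham and 10.11, 10.26, 10.18 and 10.26 in cKO sham hearts, so the groups did not overlap. After TAC it was at 9.64, 10.09, 8.89 and 9.49 in control and 10.94, 10.51, 9.24 and 9.80 in cKO hearts, which overlapped. The SD was 0.15 in control and 0.07 in cKO hearts after sham, and 0.50 and 0.75 after TAC, and no neighbouring means in the order (9.38, 9.53, 10.12 and 10.20 from control sham through control TAC and cKO TAC to cKO sham) differed beyond the larger SD. The genotype difference was 0.82 ± 0.29 (SE) after sham, a 1.77-fold difference, and 0.595 ± 0.288 after TAC (limma adjusted p = 0.382 and 0.667). Fitted on the 8 sham arrays alone, the sham difference had an SE of 0.09 and passed, as 1 of 3 probe sets called in that fit (limma adjusted p = 0.0455), while the fit on 16 arrays pools the spread with the wider TAC groups. The TAC value ranged from 0.32 without cKO TAC replicate 1 to 0.89 without cKO TAC replicate 3. With the 6 Myl7-high arrays left out, it was 0.33 and the sham value 0.86.

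Myoz2, the calsarcin 1 gene, was the steadiest of the 8. It was at 12.40, 12.37, 12.45 and 12.53 in control sham, 12.57, 12.43, 12.42 and 12.41 in cKO sham, 12.41, 12.38, 12.34 and 12.56 in control TAC and 12.48, 12.36, 12.44 and 12.30 in cKO TAC hearts. All groups overlapped, no neighbouring means differed beyond their SD, and its pooled within-group SD of 0.081 stood at the 4.05th percentile of all probe sets tested. The genotype difference averaged over surgery was -0.00375 with a 95% confidence interval from -0.093 to 0.086 (limma adjusted p = 0.978), so a difference of the size seen in Pdlim5 lies outside that interval. Ttn and Mybpc3, whose windows also hold a MEF2 box, had differences of 0.28 ± 0.09 and 0.26 ± 0.07 in the same average (SE, limma adjusted p = 0.199 and 0.162). Neither passed, and whether the box bears on these values was not tested.

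Tcap, the gene of the titin cap telethonin, was at 9.67, 10.30, 9.79 and 9.75 in control sham, 9.46, 9.82, 9.73 and 9.62 in cKO sham, 9.75, 10.34, 9.90 and 9.38 in control TAC and 10.08, 9.71, 9.93 and 9.95 in cKO TAC hearts. The groups overlapped in every comparison, and control TAC replicates 2 and 4 were the highest and lowest of the 16 arrays. The means were 9.66 in cKO sham, 9.84 in control TAC, 9.88 in control sham and 9.92 in cKO TAC hearts, and no neighbouring means differed beyond their SD. The genotype difference was -0.22 ± 0.17 (SE) after sham and 0.075 ± 0.172 after TAC (limma adjusted p = 0.660 and 0.948), and -0.079 after sham without control sham replicate 2. TAC minus sham was 0.26 ± 0.17 in cKO and -0.035 ± 0.172 in control hearts (limma adjusted p = 0.799 and 0.976), with an interaction of 0.295 ± 0.243 that did not pass (limma adjusted p = 1). The interaction ranged from 0.14 without control TAC replicate 4 to 0.46 without control TAC replicate 2, was 0.15 without control sham replicate 2, and was 0.60 without the 6 Myl7-high arrays.

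The comparison of cKO with control hearts set hearts labelled zbtb17 cKO against hearts labelled control. In the average over surgery the 6 genes Ttn, Mybpc3, Actn2, Ldb3, Pdlim5 and Myot had differences above 0 (48.8% of all probe sets did), from 0.19 ± 0.07 (SE) in Actn2 to 0.71 ± 0.20 in Myot, and Tcap and Myoz2 had values of -0.073 and -0.00375. None of the 8 passed in the average (limma, lowest adjusted p = 0.137, in Pdlim5 at 0.31 ± 0.08), where 4 of 21333 probe sets (0.0188%) were called. At an unadjusted p under 0.05 the same 6 of 8 were higher, against 8.24% of all probe sets, but as the genes were chosen with these results known nothing is read from that count. The median over the 8 genes was 0.23, beside -0.00375 over all probe sets. In the same average all 7 endothelial markers had values below 0 (median -0.18). Of these, 4 had an unadjusted p under 0.05, beside 1424 of 21333 probe sets lower at that p, and none passed after adjustment (limma). All 5 tested atrial markers (median 0.31) and all 8 fibroblast markers (median 0.11) had values above 0, and none passed. Macrophage markers had 2 of 7 values above 0 (median -0.0875), and smooth muscle and pericyte markers 3 of 5 (median 0.23). Of 9 ventricular cardiomyocyte markers 7 had values above 0 (median 0.0525), and only Myl2 passed, lower in cKO hearts (limma adjusted p = 0.000232). The part of RNA from any of these cell types in the values of the 8 genes was not tested.

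**Figure D2:**
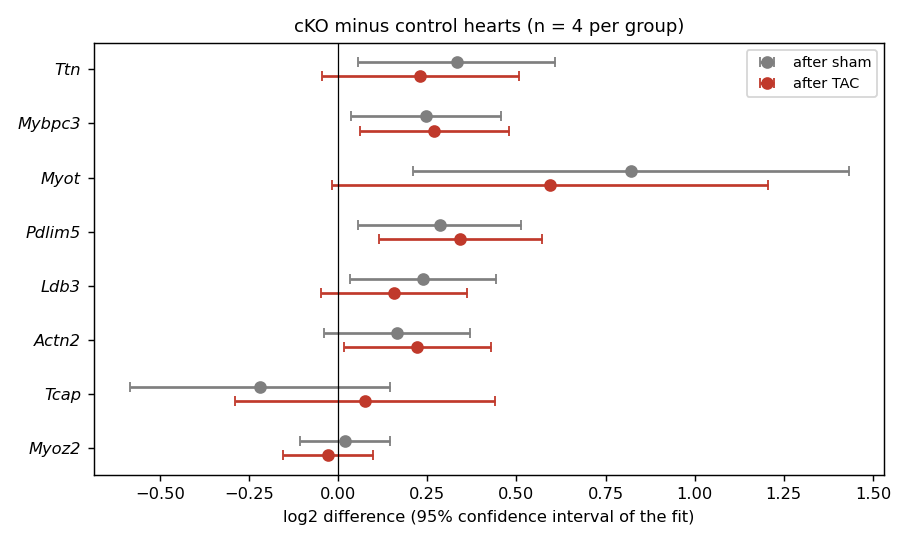
Log2 difference between cKO and control hearts (horizontal axis) for each of the 8 genes (vertical axis), after sham (grey) and after TAC (red), with the 95% confidence interval of the limma fit as bars. The points of Ttn, Mybpc3, Myot, Pdlim5, Ldb3 and Actn2 lie right of 0 in both surgeries, and those of Myoz2 lie at 0.02 and -0.03.

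After sham alone, 7 of 8 differences were above 0 (50.3% of all probe sets) and none passed (limma, lowest adjusted p = 0.382), where 5 of all probe sets (0.0234%) were called. At an unadjusted p under 0.05, 5 of 8 were higher (5.96% of all probe sets), and in 2 of 8, Myot and Ldb3, all cKO hearts lay above all control hearts (2.95% of all probe sets). After TAC alone, 7 of 8 were above 0 (48.2% of all probe sets), 3 of 8 were higher at an unadjusted p under 0.05 (Pdlim5, Mybpc3 and Actn2, against 3.83% of all probe sets) and in none did the groups separate (2.38% of all probe sets were higher with no overlap). No member passed there (limma, lowest adjusted p = 0.563), where 1 probe set (0.00469%) was called. In sham hearts the SD of the cKO group was below that of the control group in 7 of 8 genes, and in TAC hearts in 6 of 8. The share over all probe sets was not computed and the difference in spread was not tested, so nothing is read from these counts. Control TAC replicate 1 was the lowest of the 16 arrays in Ttn, Mybpc3 and Actn2, and control sham replicate 1 in Pdlim5 and Ldb3. Leaving out any 1 array kept the average above 0 in each of the 6 genes, with ranges of 0.24 to 0.33 for Ttn, 0.21 to 0.29 for Mybpc3, 0.14 to 0.23 for Actn2, 0.145 to 0.22 for Ldb3, 0.27 to 0.35 for Pdlim5 and 0.57 to 0.85 for Myot. When 1 of these low control arrays was left out, the other stayed in. No fit without both was run, so the ranges do not cover that case.

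The comparison of TAC with sham set hearts after TAC against hearts after a sham operation in each genotype. No member passed in control hearts (limma, lowest adjusted p = 0.673, in Ttn), in cKO hearts (0.726, in Ttn) or averaged over genotype (0.281, in Ttn), and 0 of 21333 probe sets (0%) passed in any of the 3. At an unadjusted p under 0.05 there were 0 of 8 members in control hearts (8.32% of all probe sets) and 1 of 8, Ttn, lower in cKO hearts (2.93%) and in the average (4.8%). Ttn was also the only one of the 8 whose groups did not overlap, in cKO hearts, lower after TAC (2.08% of all probe sets). The other 7 differences lay between -0.0925 and 0.145 in control hearts and between -0.08 and 0.26 in cKO hearts. In the average over genotype all 8 fibroblast markers (median 0.34) and all 7 macrophage markers (0.48) were above 0. So were all 7 endothelial (0.185) and all 5 tested atrial markers (0.175), against 53.9% of all probe sets. Of 9 ventricular cardiomyocyte markers 7 were below 0 (median -0.0625), and in cKO hearts all 9 (-0.09). No marker on these lists passed (limma), and their part in the values of the 8 genes was not tested. The TAC and genotype comparisons share groups, so their values are not independent of each other. Whether TAC acted differently in the genotypes was tested by the interaction, in which no member passed (limma adjusted p = 1 for each; 0 of 8 and 3.7% of all probe sets at an unadjusted p under 0.05; 0 probe sets called, 0%), with values from -0.225 in Myot to 0.295 in Tcap.

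**Figure D3:**
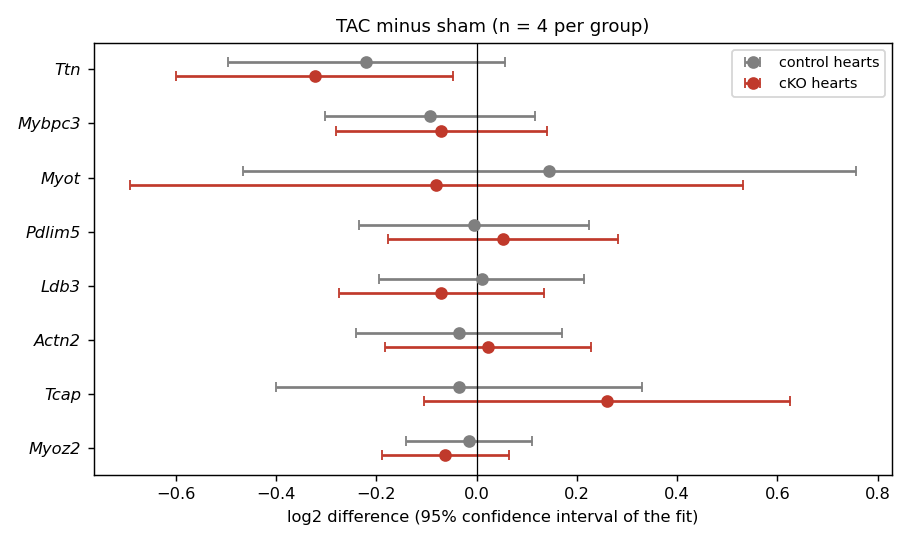
Log2 difference between TAC and sham hearts (horizontal axis) for each of the 8 genes (vertical axis), in control (grey) and cKO hearts (red), with the 95% confidence interval of the limma fit as bars. Ttn lies at -0.22 in control and -0.32 in cKO hearts, and of the 16 intervals only that of Ttn in cKO hearts leaves out 0.

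Arrays with signal of the atrial gene Myl7 were high in Myot. In all 4 groups the array or arrays with Myl7 above 6 had the highest Myot values of the group (cKO sham replicate 2 shared 10.26 with replicate 4), and in 3 of 4 groups they had the highest Pdlim5 values. In cKO TAC hearts, replicates 1 and 2 (Myl7 6.07 and 8.83) had Myot at 10.94 and 10.51 and Pdlim5 at 11.97 and 11.98, while replicates 3 and 4 (Myl7 4.69 and 4.33) had Myot at 9.24 and 9.80 and Pdlim5 at 11.57 and 11.69. Ttn ran the other way there, at 11.61 and 11.51 against 11.95 and 11.86, and Myl7-high arrays were the lowest in Ttn in 2 of 4 groups. The same order of Myl7-high arrays at the top was seen in 1 of 4 groups for Tcap, in 1 only as a tie for Ldb3 (10.89, shared by control sham replicates 2 and 3) and for Actn2 (12.63, shared by cKO sham replicates 1 and 2), and in none for Mybpc3 and Myoz2. Because Myl7 was at 4.30 to 5.20 on 10 arrays and spread from 6.07 to 8.83 on the other 6, no correlation over all arrays is given. The 6 do not form 1 tight set, as cKO TAC replicate 1 and control TAC replicate 1 were both at 6.07, and the cut at 6 was set after seeing the data. The whole list of 6 atrial markers averaged 5.84 to 7.68 per array in control and 6.09 to 7.72 in cKO hearts after sham, and 5.885 to 7.33 and 5.88 to 8.42 after TAC, with 5 of 6 above the filter. Another atrial gene, Sln, was at 4.40 to 5.18 on the Myl7-high arrays and at 4.14 to 4.31 on the others. Sln was dim, and its values on those others lay below the filter level of 4.37. Fibroblast markers, 8 of 8 above the filter, averaged 8.13 to 8.84 in control and 8.30 to 8.89 in cKO hearts after sham, and 8.39 to 9.05 and 8.47 to 9.85 after TAC. The part of atrial or fibroblast RNA in the values of the 8 genes was not tested.

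**Figure D4:**
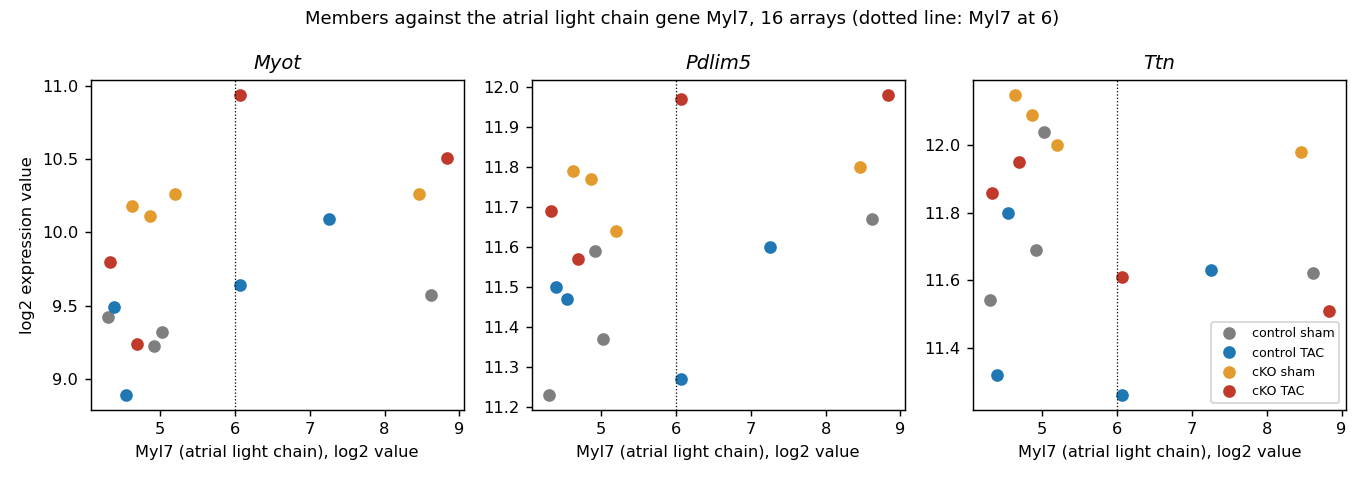
Log2 values of Myot, Pdlim5 and Ttn (vertical axes) against the log2 value of the atrial light chain gene Myl7 (horizontal axis) on 16 arrays, coloured by group, with a dotted line at 6. The cKO TAC arrays right of the line have the highest Myot values of all groups, 10.94 and 10.51.

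How the genes varied among themselves was examined on the deviations of the 16 arrays from their group means, which removes the group differences. Of 28 pairs, 22 had a Pearson r above 0, with a median of 0.28. The closest pair was Mybpc3 and Actn2, at r = 0.86 (permutation p = 0.00318, adjusted over 28 pairs 0.0857) and Spearman rho = 0.60 (permutation p = 0.0445, adjusted 0.198). Without control sham replicate 1 and control TAC replicate 1, the arrays farthest from the median of Mybpc3, r was 0.66. Ldb3 and Actn2 had r = 0.81 (permutation p = 0.00612, adjusted 0.0857; rho = 0.60, permutation p = 0.0383, adjusted 0.198) and 0.56 without the same arrays. Ttn and Actn2 had r = 0.76 (permutation p = 0.0119, adjusted 0.0872; rho = 0.80, permutation p = 0.0113, adjusted 0.198) and 0.73 without control TAC replicate 3 and control sham replicate 2. No pair passed after adjustment; all points share the arrays and their scaling.

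**Figure D5:**
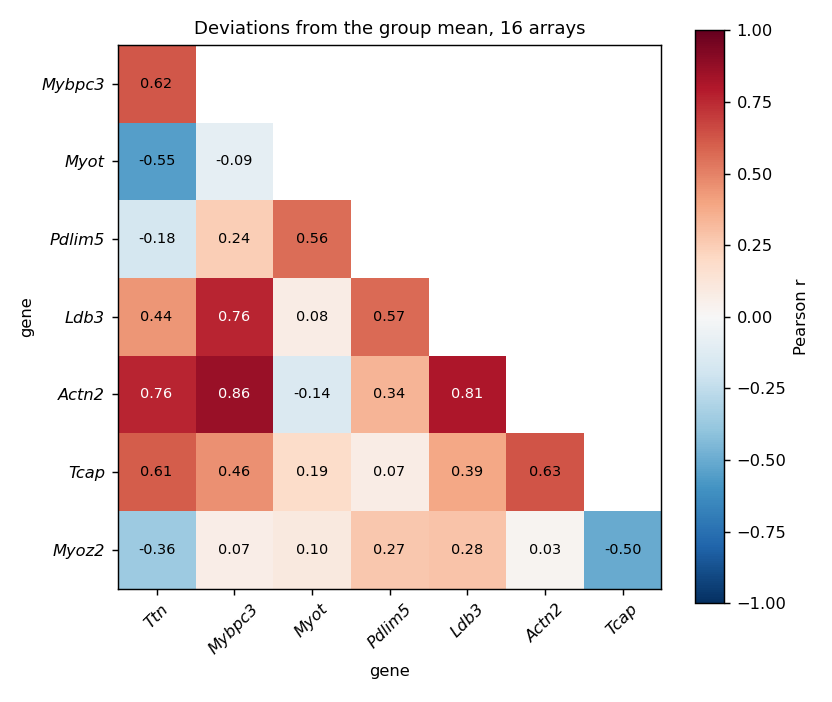
Pearson r between the deviations from the group mean of each pair of the 8 genes over 16 arrays (both axes list genes; the colour scale runs from -1 to 1). Actn2 has the highest values, with Mybpc3 (0.86), Ldb3 (0.81) and Ttn (0.76), and Ttn with Myot has the lowest (-0.55).

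Myot was near 0 with Mybpc3 (r = -0.09), Ldb3 (0.08) and Actn2 (-0.14), and none of its pairs passed (permutation p = 0.775, 0.764 and 0.658, adjusted 0.868, 0.868 and 0.837). It had r = -0.55 with Ttn (permutation p = 0.0913, adjusted 0.258; rho = -0.61, permutation p = 0.0567, adjusted 0.198; -0.49 without control TAC replicate 3 and control sham replicate 2) and 0.56 with Pdlim5 (permutation p = 0.0962, adjusted 0.258; rho = 0.56, permutation p = 0.0934, adjusted 0.230; 0.32 without cKO TAC replicates 1 and 3). Over the same 16 deviations, the 2 genes most like each member among 13669 genes were ranked by Pearson r, a description with no test since they were picked as the highest of many. For Ttn they were Huwe1 (0.95), a ubiquitin ligase gene, and Fsd2 (0.94). For Actn2 they were Cand2 (0.96) and Mast2 (0.94), and for Mybpc3 Xpo7 (0.93) and Lmod3 (0.91), the gene of a leiomodin that nucleates actin filaments. Ldb3 was most like Parvb (0.91), whose product parvin links integrins to actin, and Trappc10 (0.90). Pdlim5 was most like Gnao1 (0.91) and Tmf1 (0.90), Myot like Lrrc18 (0.92) and Apbb1ip (0.89), Tcap like Cbx2 (0.91) and the clock gene Cry2 (0.86), and Myoz2 like Fam111a and Gak (0.86 each).

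Other genes of the Z-disc were taken from a list of 24, of which 23 passed the filter. None passed the test in the average over surgery (limma), 17 of 23 had a value above 0 and 6 below, and the median was 0.13, beside -0.00375 over all probe sets. Capzb, a subunit of the capping protein that holds actin ends at the Z-disc, was at 0.14 ± 0.04 (SE, limma adjusted p = 0.195), and Myoz3, a relative of Myoz2, was at -0.20 ± 0.06 (limma adjusted p = 0.195). Myoz3 was dim, with group means of 5.135 to 5.41. After sham the cKO hearts did not overlap the control hearts in Capzb (0.13 ± 0.06, limma adjusted p = 0.481). After TAC Synpo2, a Z-disc adaptor gene, was at 0.34 ± 0.13 and Fhl2 at -0.22 ± 0.09 (SE, limma adjusted p = 0.615 and 0.626). In TAC against sham averaged over genotype, Nebl, a nebulin relative of the Z-disc, was at -0.31 ± 0.11 and Xirp1 at -0.71 ± 0.32 (SE, limma adjusted p = 0.281 and 0.401). The Xirp1 value rests on the 3 Atf3-high sham arrays, at 10.69 to 11.35, while the other sham arrays were at 8.65 to 9.65 and the TAC arrays at 8.91 to 9.63; without those 3 it was -0.015. Without the 6 Myl7-high arrays Nebl was at -0.13, Synpo2 after TAC at 0.215 and Capzb in the genotype average at 0.0875. In the average of TAC against sham the list had 10 of 23 genes above 0 (53.9% of all probe sets).

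Of 14 thick filament and M-band genes, 12 were tested and 9 had a genotype value above 0 in the average (median 0.13). Control sham replicate 1 (8.51) and control TAC replicate 1 (8.56) had the lowest list averages here too. The next was control TAC replicate 4 at 8.74. Only Myl2, the ventricular regulatory light chain gene, passed, with a sign opposite to the list's median, at -0.365 ± 0.055 after sham, -0.48 ± 0.06 after TAC and -0.42 ± 0.04 in the average (SE, limma adjusted p = 0.0401, 0.00434 and 0.000232). Myom3, an M-band gene, was at -0.20 ± 0.07 after sham, Myom1 at 0.24 ± 0.12 after TAC and Mybph, a relative of Mybpc3, at -0.20 ± 0.07 in the average (SE, limma adjusted p = 0.369, 0.685 and 0.246). Myom3 and Mybph were dim, with group means of 5.315 to 5.52 and 5.045 to 5.265, while array medians were 4.85 to 4.975. After TAC, averaged over genotype, Mylk3, the kinase gene for Myl2, was at -0.34 ± 0.08 and Myom2, an M-band gene, at -0.40 ± 0.14 (SE, limma adjusted p = 0.232 and 0.293). Without the 6 Myl7-high arrays Myom1 was at 0.125, Mybph at -0.0725 and Myom2 at -0.15, while Myl2 was at -0.35 after sham, -0.395 after TAC and -0.37 in the average.

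Of 11 thin filament genes, all tested, 10 had a genotype value above 0 (median 0.075) and none passed. The lowest list averages were again those of control TAC replicate 1 (11.01) and control sham replicate 1 (11.06), before control TAC replicate 3 (11.12). Tnnt2, cardiac troponin T, was at 0.075 ± 0.029 and Lmod3 at 0.20 ± 0.09 (SE, limma adjusted p = 0.252 and 0.311), and Tpm2 was at 0.30 ± 0.16 after sham (SE, limma adjusted p = 0.516). After TAC in control hearts Lmod2 was at -0.395 ± 0.153, and in cKO hearts Acta1, skeletal actin, was at 1.16 ± 0.58 (SE, limma adjusted p = 0.535 and 0.731). The Acta1 value rests on cKO TAC replicates 1 and 2, both Myl7-high, at 12.65 and 12.57; replicates 3 and 4, at 10.79 and 10.75, lay inside the cKO sham range of 9.83 to 11.55, and without the Myl7-high arrays the difference was 0.30. Without the Atf3-high arrays Lmod2 was at -0.17 and Tpm2 at 0.55. Of 11 genes whose products bind or signal from titin, 10 were tested, 9 had a genotype value above 0 (median 0.072) and none passed. Control sham replicate 1 (9.09) and control TAC replicate 1 (9.22) were lowest on this list as well, before control TAC replicate 3 (9.255). Fhl1, whose product binds the titin spring, was at 0.515 ± 0.145 (SE, limma adjusted p = 0.172), with 0.37 ± 0.21 after sham and 0.66 ± 0.21 after TAC (0.35 without the Myl7-high arrays and, after sham, 0.56 without the Atf3-high arrays), and Nbr1, an autophagy receptor at titin kinase, was at 0.15 ± 0.05 (SE, limma adjusted p = 0.211).

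Ttn, Ldb3 and Pdlim5 are spliced into many isoforms, which 1 value per gene does not separate. Differences in a list of 10 splicing regulators are therefore given beside them, by name only for those of smallest p. All 10 were tested and none passed in any of the 7 comparisons. In TAC against sham averaged over genotype 8 of 10 had a value below 0 (median -0.077), with Rbfox1 at -0.45 ± 0.14 and Rbm24 at -0.285 ± 0.098 (SE, limma adjusted p = 0.253 and 0.284). In cKO against control averaged over surgery 9 of 10 were above 0 (median 0.087), with Celf2 at 0.17 ± 0.06 and Rbfox2 at 0.105 ± 0.053 (SE, limma adjusted p = 0.220 and 0.363). Without the 6 Myl7-high arrays Rbfox1 was at -0.24, Rbm24 at -0.165 and Rbfox2 at 0.042, and without the Atf3-high arrays Rbm24 was at -0.16.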

How the data were processed

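RNA from 16 hearts (fibrous tissue kit, biotin label, per the labels' protocols) was hybridised to 1 array per mouse. Log2 values of 35556 probe sets were used as the authors deposited them; the submitters' processing notes name MAS5, with no version, and how arrays were scaled is not stated. Array medians lie between 4.85 and 4.975, so a shift shared by all genes would not show. With arrays, the number per group (4) limits the precision.

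The platform annotation gave 1 symbol for 21789 probe sets, several for 1621, and did not list 12146. The filter on dim probe sets (mean above the 40th percentile) left 21333. limma 3.58.1 (R 4.3.3) fitted 4 group means with a mean-variance trend and 12 residual degrees of freedom; tests were two-sided with Benjamini-Hochberg adjustment over all probe sets. Correlations used 100000 permutations within groups. Scripts were tested on simulated data. Alternatives varied the scaling, filter, variance prior, array weights, groups fitted, pairing, probe set summary and arrays left out; those without Myl7-high or Atf3-high arrays were added after seeing the data. Named were all members, list genes past the threshold or among the 2 smallest p of a comparison (a selection is printed), and the 2 genes most like each member; marker genes come from the marker lists. Members and lists were chosen with earlier results of these data known.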

Additional observations from a re-analysis of the deposited data

Results flagged for a closer look

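Among 32 sets of 4 hearts (8 genes in 4 groups), 2 held a heart far from the other 3, where chance gives about 1 in 20. Ldb3 in control sham replicate 1 was at 10.45, while the other control sham hearts were at 10.82 to 10.89, and the gap took up 0.841 of the group's range. Myoz2 in cKO sham replicate 1 was at 12.57, while the other cKO sham hearts were at 12.41 to 12.43, a gap of 0.875 of the range. Control sham replicate 1 was also the lowest of its group in Ttn (11.54), Mybpc3 (11.84), Actn2 (12.23), Pdlim5 (11.23) and Tcap (9.67). Without it, the Ldb3 difference between cKO and control hearts after sham was 0.13, against 0.24 with all arrays.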

How the results depend on the processing

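No member passed the threshold in any of the 7 comparisons under any of 27 alternatives, except Myot in cKO against control hearts after sham (0.82, adjusted p = 0.0455), where 1 member was called when only the sham arrays were fitted. Of 56 differences (8 genes in 7 comparisons), 26 were at least as large as their standard error, and none of these changed sign under any alternative run; of the 30 smaller ones, a split chosen after seeing the data, 26 changed sign under at least 1. With the replicate number as a block (replicate block) 0 members were called in each comparison; Pdlim5 averaged over surgery had an adjusted p of 0.191 against 0.137 without it. Deviations of same-numbered hearts correlated between -0.205 and 0.193, with 6 of 24 pairs above 0.1, so the numbers were not taken to pair the mice. One pair of genes passed after quantile normalization, Ldb3 and Actn2 (r = 0.83, adjusted permutation p = 0.0188), against 0 in the deposited values, and leaving out single arrays gave 0 to 1, the 1 being Mybpc3 and Actn2 without control TAC replicate 3 (r = 0.88) or 4 (r = 0.94); the cause was not tested. Fits on only the groups compared could not be run for the averages and the interaction, which use all 4 groups. The members have 1 probe set each, so averaging probe sets changed only the number of genes tested. The number of arrays limits all values.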
